A study of Homo sapiens with 15 samples.

Results

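The genes followed here encode proteins of the extracellular matrix. They are the small leucine-rich proteoglycans LUM (lumican), DCN (decorin), BGN (biglycan), OGN (osteoglycin) and ASPN (asporin), the large proteoglycan VCAN (versican), and the matrix glycoproteins SPARC (osteonectin), POSTN (periostin), FN1 (fibronectin) and TNC (tenascin C). They were picked as proteoglycans and glycoproteins of connective tissue and bone, with earlier results of these data known. They make up 10 of the 60675 genes in the count table. Expression was high enough for testing in 8 of the 10. OGN and ASPN were not tested.

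The cells were H9, an established human embryonic stem cell line, wild type, taken on day 7 of a culture toward the osteogenic (bone-forming) lineage. All 5 groups, the controls included, first stayed in serum-containing medium without directing factors, and from day 5 the medium held ascorbic acid, β-glycerophosphate and vitamin D3. Each group has 3 libraries. The control, UNT, received the vehicle DMSO at 0.1%. The other groups were exposed from day 0 to fine particulate matter (FPM) at 0.00062 µg/mL (FPM_IC25) or 1.4 µg/mL (FPM_IC50), or to a NIST standard reference material (SRM) at 0.003 µg/mL (SRM_IC25) or 5.9 µg/mL (SRM_IC50). IC25 and IC50 are inhibitory concentrations on a protein basis, per the labels. All samples come from 1 cell line, and the labels do not say whether replicates were separate cultures. The p-values therefore measure only how these libraries scatter, and that scatter may be technical.

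Small leucine-rich proteoglycans are secreted core proteins built from leucine-rich repeats, most of which carry chondroitin, dermatan or keratan sulfate chains. Lumican and decorin bind collagen fibrils and limit their width, and biglycan and asporin are known from bone, cartilage and tendon. Versican binds hyaluronan and forms a loose, hydrated matrix around proliferating and migrating cells. Fibronectin is a scaffold that cells bind through integrins, while SPARC, periostin and tenascin C belong to the matricellular proteins, which modulate how cells hold on to the matrix. In the bone lineage SPARC is an abundant non-collagenous protein and periostin is named after the periosteum.

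Levels are given as CPM (counts scaled to a common library size, with TMM factors), unless FPKM (per length of the gene) is named. Library totals ran from 9340745 to 58239176 counts, and replicate pairs correlated at 0.982 to 0.994 on the log2 CPM scale. The FPM libraries stood apart in 1 respect: genes that the annotation types as antisense held 0.942% to 1.499% of their counts, against 0.274% to 0.319% in the other 9 libraries. The label of an osteogenic culture was checked against 10 osteoblast-lineage markers, which summed to 660.9 to 750.0 CPM in the UNT libraries. Most of that sum came from SPP1 (osteopontin, 374 ± 65.8 CPM), COL1A1 (231 ± 21.8) and ALPL (alkaline phosphatase, 88.3 ± 7.59), genes that other cells express too (SD, n = 3). RUNX2, a transcription factor of early osteoblasts, stood at 5.40 ± 0.552 CPM and SP7, a factor of committed osteoblasts, at 0.817 ± 0.0693. PHEX, BGLAP (osteocalcin), DMP1 and IBSP, genes of mature bone cells, were each below 0.5 CPM on average, and IBSP had 1 count in the 3 libraries. Simple-epithelium markers summed to 6503 to 8793 CPM and pluripotency markers to 1761 to 2015 CPM in the same libraries.

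Promoter sequence was taken from RefSeq (GRCh38.p14) for FN1, TNC and POSTN, which fell together in the results below. LUM and DCN had no entry in the table used. The first set compares 30 bases around the TATAA nearest to the start site (in capitals) in FN1 and TNC. A TATAA in this window is not particular to members that fell, and nothing is read from it. Positions count back from -1, the base before the RefSeq start. It spans -28 to -24 in FN1 (chr2:215436080-215436109, minus strand) and -27 to -23 in TNC (chr9:115118168-115118197, minus strand).
FN1: ggggaccgtcccaTATAAgccccggctccc
TNC: aaggagctcgctaTATAAgccagccaaagt

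Further upstream the promoters of these 3 genes differ. The second set shows the sequence from -250 to the outermost exon of the gene in GENCODE 29, ending at -105 in FN1 (chr2:215436173-215436318), -101 in TNC (chr9:115118258-115118407) and -77 in POSTN (chr13:37598845-37599018), all on the minus strand.
FN1: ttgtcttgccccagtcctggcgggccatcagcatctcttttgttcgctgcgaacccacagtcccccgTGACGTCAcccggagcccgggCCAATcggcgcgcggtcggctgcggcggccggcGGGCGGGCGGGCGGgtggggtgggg
TNC: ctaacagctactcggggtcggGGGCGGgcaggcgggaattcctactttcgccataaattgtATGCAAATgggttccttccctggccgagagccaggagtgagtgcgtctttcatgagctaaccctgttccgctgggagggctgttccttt
POSTN: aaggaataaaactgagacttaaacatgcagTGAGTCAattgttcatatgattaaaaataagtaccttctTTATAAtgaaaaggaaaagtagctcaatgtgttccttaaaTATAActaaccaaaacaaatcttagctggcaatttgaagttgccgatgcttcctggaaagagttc

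Capitals mark matches, on either strand, to the motifs searched. These were the TATA element TATAA, the CCAAT box, the GC box GGGCGG, the cyclic AMP element TGACGTCA, the octamer ATGCAAAT, the dioxin-response core TNGCGTG and the AP-1 element TGANTCA. In FN1, TGACGTCA spans -183 to -176, and the GGGCGG matches overlap one another. In TNC, ATGCAAAT spans -189 to -182, and in POSTN, TGANTCA spans -220 to -214. Of 35116 RefSeq promoters searched over the same 250 bases, 18.9% hold the TATA element, 32.0% the CCAAT box, 42.6% the GC box, 1.65% the cyclic AMP element, 1.63% the octamer and 6.57% the AP-1 element. The dioxin-response core (4.52% of promoters) was in no window of the 8 members found in the table. GC content over the 250 bases was 76.4% in FN1, 54.8% in TNC and 36.4% in POSTN. A match describes letters only.

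At SRM_IC50 the matrix genes split. LUM, DCN, POSTN, FN1 and TNC fell against UNT, VCAN rose, and no change was called for SPARC or BGN. Of the 8 members tested, 5 were lower and 1 higher at an adjusted p under 0.05 (edgeR quasi-likelihood test, Benjamini-Hochberg over all 19012 genes tested). The background for either direction was 17.6% of all genes, with 9.59% lower and 7.96% higher. The median log2 fold change of the 8 members was -1.03, against 0.00 over all genes tested. Groups did not overlap for 5 members, and for 29.7% of all genes. DESeq2 called 6 members too. An F test for any difference among the 5 groups also passed for 6 of the 8 members, and for 40.8% of all genes. The members were chosen with earlier results of these data known, so these counts support no claim on their own.

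**Figure D1:**
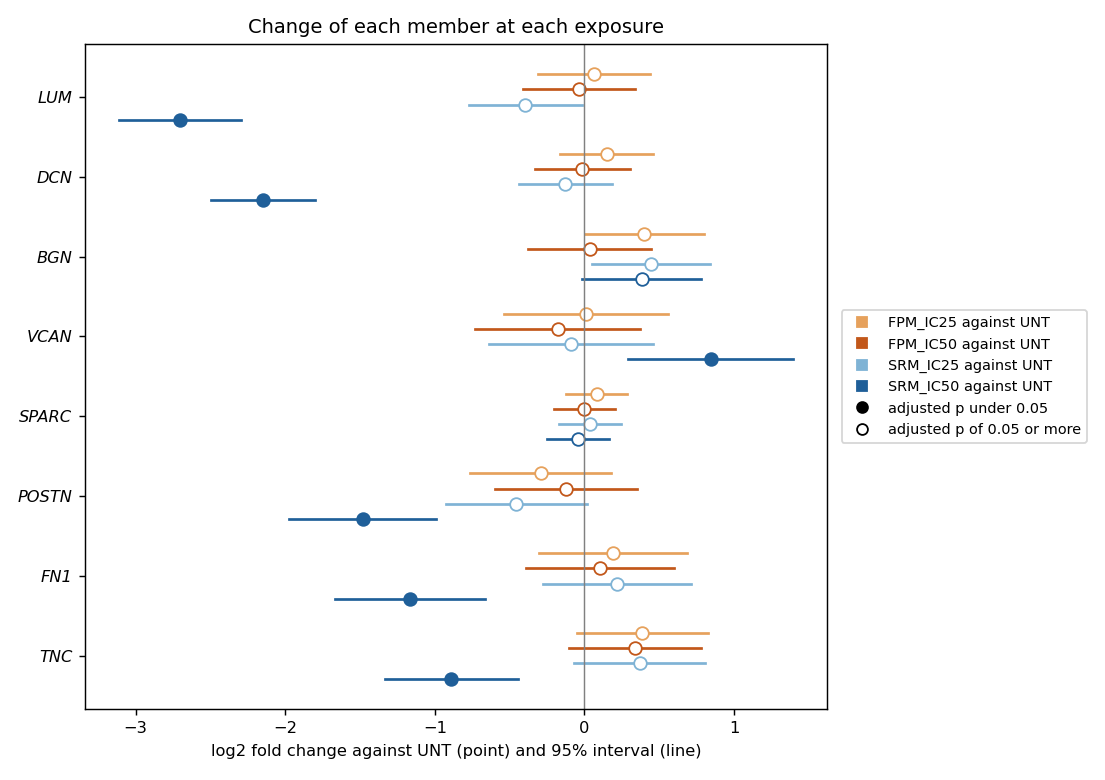
Log2 fold change against UNT (x axis) of the 8 tested genes at each exposure; points are estimates, lines 95% intervals, and filled points have an adjusted p under 0.05 (edgeR). The filled points are those of SRM_IC50 alone, with LUM at -2.70 at the lower end and VCAN at 0.84 at the upper.

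Among the small proteoglycans, LUM fell the most. Its libraries stood at 119, 153 and 165 CPM in UNT and at 21.3, 20.4 and 25.7 CPM at SRM_IC50. The 3 exposed libraries were close together and far below every other library, the next lowest being 87.2 CPM at SRM_IC25. The log2 fold change was -2.70 (SE 0.192, adjusted p = 1.1e-07, edgeR), a 6.52-fold lower level. LUM lies at chr12:91102629-91111831 on the minus strand (GRCh38, GENCODE 29), with no annotated gene on the other strand.

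DCN, the neighbouring gene 28.7 kb away on the same strand (chr12:91140484-91183123), fell with it. Its levels were 26.4, 32.2 and 37.3 CPM in UNT against 6.41, 6.77 and 8.88 CPM at SRM_IC50, with no overlap. The log2 fold change was -2.15 (SE 0.164, adjusted p = 1.88e-07, edgeR). On log2(FPKM + 1), where the pseudocount compresses low genes, it was -1.12. On the far side of LUM in the same cluster, KERA (keratocan) had 4 counts over all 15 libraries and EPYC (epiphycan) had 0. The signal of this cluster therefore came from LUM and DCN.

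BGN, on the X chromosome (153494939-153509554, plus strand), did not follow LUM and DCN. It stood at 17.1, 12.3 and 10.6 CPM in UNT and at 19.6, 18.2 and 13.98 CPM at SRM_IC50, and the groups overlap. The log2 difference was 0.38 with a 95% interval of -0.02 to 0.78 (adjusted p = 0.198, edgeR). An increase of up to 1.72-fold lies within that interval. One UNT library decides the call: without UNT replicate 1 the difference was 0.61 (adjusted p = 0.0374).

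OGN and ASPN, neighbours on chromosome 9 (92383967-92404696 and 92456205-92482506, minus strand), were at the limit of detection. OGN had 6 counts in all, in 5 of the 6 FPM libraries and in no other, and at most 2 in a library. ASPN had 1 count, in 1 UNT library. A floor of 3 counts corresponds to 0.0504 to 0.309 CPM, and covers counting error only. No level above it was detectable in any library. OMD (osteomodulin), between them, had 0 counts and ECM2, next to ASPN, had 8. CENPP, a centromere gene, spans OGN and ASPN on the opposite strand. It stood at 13.5 to 17.5 CPM at FPM_IC25 and 14.4 to 18.99 at FPM_IC50, against 10.1 to 12.7 CPM in UNT. The part of such reads in the OGN counts was not tested.

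VCAN (chr5:83471465-83582303, plus strand) was the member that rose. Its libraries stood at 415, 328 and 218 CPM in UNT and at 713, 631 and 381 CPM at SRM_IC50. The lowest exposed library lies below the highest control, so the groups overlap. The log2 fold change was 0.84 (SE 0.260, adjusted p = 0.0336, edgeR), or 1.79-fold. The call depended on which libraries were fitted. Replicate numbers pair these groups only in part, and with the replicate block the adjusted p was 0.000791 (edgeR). The call was kept in 9 of 17 alternatives. It was lost without UNT replicate 2 (adjusted p = 0.0856), UNT replicate 3 (0.138), SRM_IC50 replicate 1 (0.147) or SRM_IC50 replicate 2 (0.101), and without the FPM libraries (0.0526). Against SRM_IC25 (363, 273 and 268 CPM) VCAN rose by 0.93 (SE 0.260, adjusted p = 0.0138), and those groups did not overlap. That call was lost without SRM_IC25 replicate 2 (adjusted p = 0.0593) or 3 (0.0586), or SRM_IC50 replicate 1 (0.063) or 2 (0.0528). Over all alternatives of these 2 comparisons the estimate lay between 0.64 and 1.16.

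FN1 (chr2:215360440-215436172, minus strand), the member with the most counts, fell at SRM_IC50. It stood at 3835, 3249 and 2670 CPM in UNT and at 1895, 1409 and 1048 CPM at SRM_IC50, with no overlap. The log2 fold change was -1.16 (SE 0.236, adjusted p = 0.00225, edgeR), or 2.24-fold lower. Because FN1 alone held 0.317% ± 0.0654 of all counts in UNT and 0.144% ± 0.0461 at SRM_IC50 (SD, n = 3), the summed share of the 10 members went from 0.456% ± 0.0763 to 0.281% ± 0.0707.

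TNC (chr9:115019578-115118257, minus strand), which can counteract fibronectin-based adhesion, fell alongside. Its levels were 275, 228 and 197 CPM in UNT and 160, 133 and 83.4 CPM at SRM_IC50. All 3 exposed libraries lie below all 3 controls. The log2 fold change was -0.89 (SE 0.209, adjusted p = 0.00648, edgeR). DELEC1, on the opposite strand, shares 129 exon bases with TNC and stood at no more than 1.22 CPM in any library.

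POSTN (chr13:37562583-37598844, minus strand), a matricellular protein of fibrous tissue, stood at 43.5, 60.2 and 47.6 CPM in UNT and at 22.0, 17.0 and 14.5 CPM at SRM_IC50. The groups do not overlap. The log2 fold change was -1.48 (SE 0.231), a level 2.79-fold lower (adjusted p = 0.000236, edgeR). SPARC (chr5:151661096-151687165, minus strand) had 605, 649 and 676 CPM in UNT and 632, 609 and 632 CPM at SRM_IC50. Its log2 difference was -0.04, with a 95% interval of -0.25 to 0.16 (adjusted p = 0.839, edgeR). That interval runs from 0.842 to 1.12 times the UNT level.

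**Figure D2:**
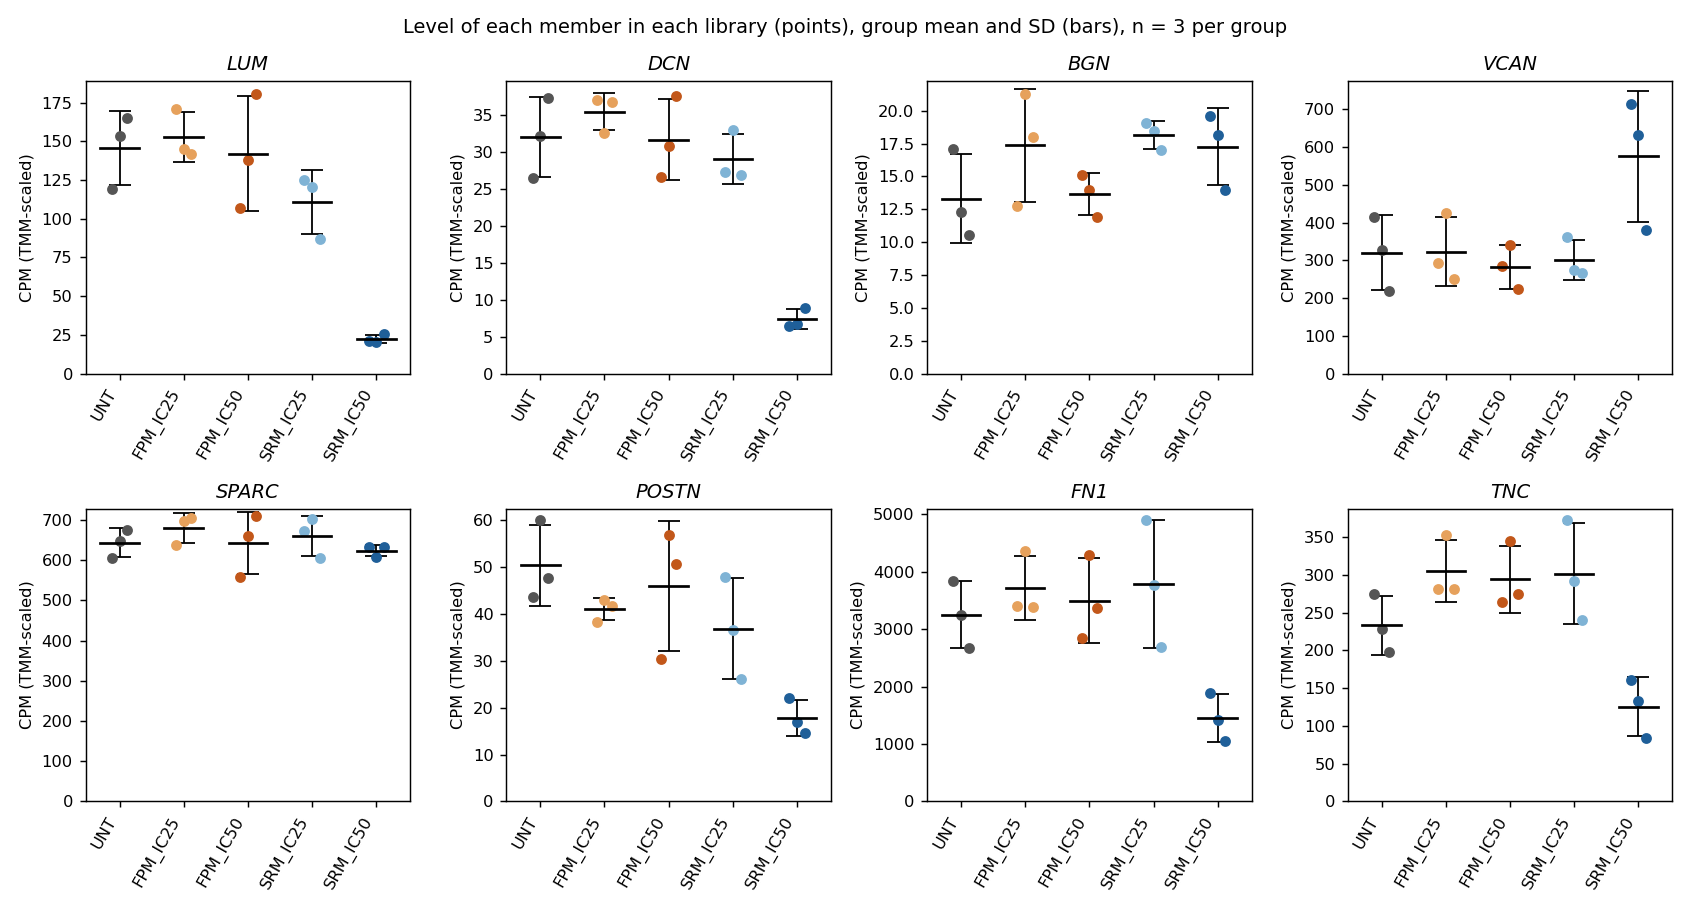
CPM (y axis, from 0) of the 8 tested genes in each library by group (x axis); points are the 3 libraries, bars the mean and SD. LUM and DCN at SRM_IC50 lie below every other library, VCAN is highest there on average (575 CPM), and SPARC stays between 559 and 711 CPM throughout.

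Markers of other cell types also changed at SRM_IC50, and some did so where no member was called. Of 14 amnion and trophoblast markers 13 fell, with sums of 2108 to 2482 CPM in UNT and 503 to 571 CPM at SRM_IC50. All 8 simple-epithelium markers fell as well, their sums at SRM_IC50 being 2976 to 3982 CPM. Of 10 pluripotency markers 7 rose, with sums of 2626 to 3170 CPM. Markers of mesenchyme and fibroblasts, cells known to make many of these proteins, were mixed: of 12, 2 rose and 4 fell, with sums of 1710 to 2006 CPM in UNT and 1761 to 2034 CPM at SRM_IC50. Of the osteoblast-lineage markers, 6 of 10 could be tested: 2 rose and 0 fell (median log2 fold change 0.47), with sums of 940.6 to 1055 CPM at SRM_IC50. ALPL rose by 0.87 (adjusted p = 2.84e-06, edgeR), while RUNX2 (-0.54, adjusted p = 0.0946) and SP7 (0.91, adjusted p = 0.0514) were not called. Of 10 neuroectoderm and neural crest markers 3 rose and 4 fell, with sums of 587 to 655 CPM in UNT and 521 to 556 CPM at SRM_IC50. Of 4 endothelial and blood markers tested 2 rose and 2 fell (52.0 to 72.1 against 89.2 to 125 CPM summed over 7). Of 2 endoderm markers tested 1 rose, and of 7 smooth muscle and cardiac markers 2 rose and 1 fell. At FPM_IC25 (14.2% of all genes called), 5 of 10 pluripotency markers fell and 4 of 12 mesenchyme and fibroblast markers rose. Of 10 neuroectoderm and neural crest markers, 1 rose and 5 fell there. At FPM_IC50 (13.6%), 3 of 10 pluripotency markers fell and 4 of 14 amnion and trophoblast markers rose. At SRM_IC25 (4.37%), 4 of 10 pluripotency markers fell. Simple-epithelium markers had 0 calls in these groups. The part of all these lists in the change of the members was not tested. In bulk RNA, fewer cells of a type and less RNA per cell cannot be told apart.

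Per gene length, the order of the members changed at SRM_IC50. By mean FPKM, UNT ran FN1 183, SPARC 129, LUM 46.8, TNC 23.6, VCAN 21.1, POSTN 8.95, BGN 5.29 and DCN 2.41, with ASPN and OGN at or near 0. TNC and VCAN overlapped in their libraries, and the other neighbours down to DCN did not. At SRM_IC50 the order was SPARC 127, FN1 83.0, VCAN 38.5, TNC 12.9, LUM 7.33, BGN 6.95, POSTN 3.22 and DCN 0.561. There, LUM and BGN overlapped. LUM thus went from 823rd to 5801st of all genes by mean FPKM, and VCAN from 2075th to 1037th. SPARC held place 247 in UNT and 251 at SRM_IC50. The FPKM of DCN rests on a counted length of 12847 bases, which joins the exons of all its isoforms, against 3008 bases for LUM.

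**Figure D3:**
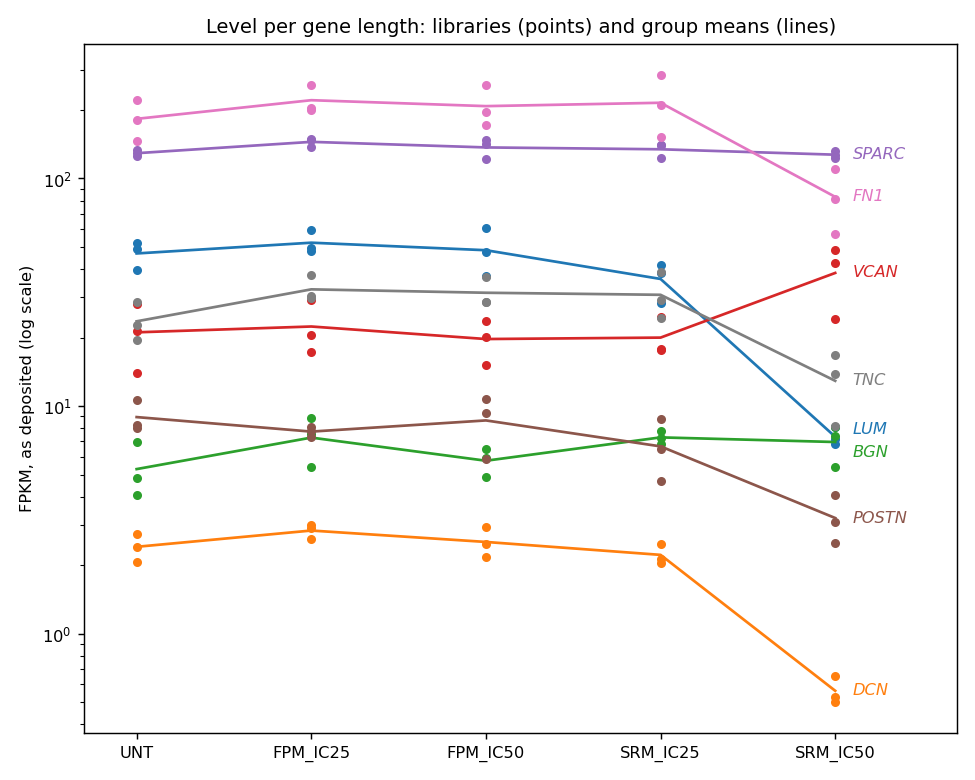
FPKM as deposited (y axis, log scale) of the 8 tested genes in the 5 groups (x axis); points are libraries and lines join group means. FN1 is on top in the first 4 groups and SPARC (127 FPKM) at SRM_IC50, where LUM reaches the level of BGN.

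Ratios within a library do not depend on how libraries were scaled. The ratio of VCAN to TNC counts was 1.51, 1.44 and 1.11 in the UNT libraries and 4.45 to 4.76 at SRM_IC50. In the other 3 groups it stayed between 0.819 and 1.20, so the SRM_IC50 libraries lie apart from all others. The ratio sets a gene called higher over a gene called lower, so its separation follows from that choice and adds no support to the change of either. FN1 to TNC ran from 13.52 to 14.25 in UNT and from 10.6 to 12.6 at SRM_IC50, a small shift beside the fall of each gene. The UNT ratios lie above those of all 12 exposed libraries, of which the highest was 13.1. LUM to DCN counts gave 4.56 ± 0.177 in UNT and 3.08 ± 0.222 at SRM_IC50 (SD, n = 3), with no overlap. Against UNT, LUM was thus the more reduced of the pair. The SRM_IC25 ratios (3.24 to 4.565) overlapped those of SRM_IC50 (2.89 to 3.32). With 3 libraries against 3, an exact permutation test of such a ratio cannot go below a two-sided p of 0.10, and none is given.

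**Figure D4:**
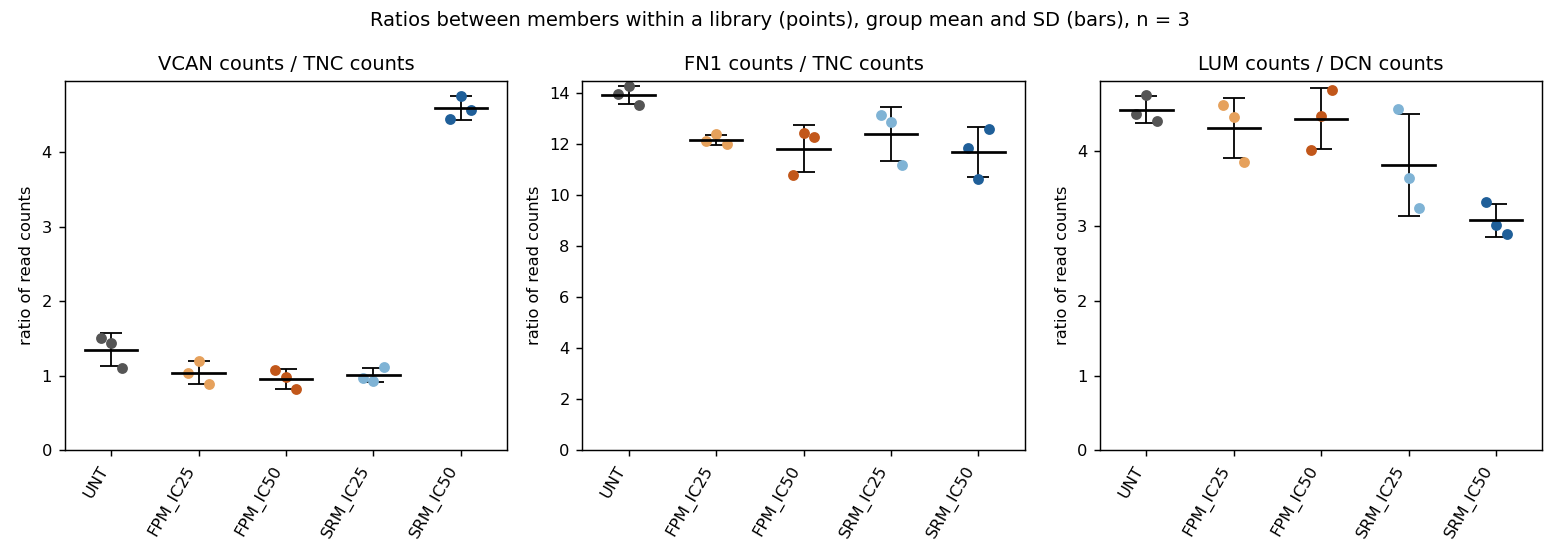
Ratio of read counts of 2 members within each library (y axis, from 0) by group (x axis); points are libraries, bars the mean and SD of 3. VCAN to TNC lies between 4.45 and 4.76 at SRM_IC50 and at or below 1.51 elsewhere, while FN1 to TNC stays between 10.6 and 14.25.

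Against the lower SRM concentration the same 6 members were called in the same directions. Of the 8 tested, 5 were lower and 1 higher at SRM_IC50 than at SRM_IC25, where 26.9% of all genes were called (13.7% higher and 13.2% lower). Groups did not overlap for these 6 members, and for 37.7% of all genes. LUM stood at 125, 120 and 87.2 CPM at SRM_IC25 and fell by 2.31 on the log2 scale (adjusted p = 2.76e-07, edgeR). DCN fell by 2.02, from 27.3, 32.9 and 26.9 CPM. FN1 varied at SRM_IC25, from 2683 to 4901 CPM, and fell by 1.38. TNC fell by 1.26 and POSTN by 1.03. SPARC (-0.08) and BGN (-0.06) were not called. This comparison and the one with UNT share the SRM_IC50 libraries, so they are not independent of each other.

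No member was called at the 3 other exposures. At SRM_IC25 edgeR called 0 of 8 members (4.37% of all genes, 0.989% higher and 3.38% lower), with 2 at an unadjusted p under 0.05 and a smallest adjusted p of 0.172. Those 2 were BGN, at 19.1, 18.5 and 17.0 CPM (log2 difference 0.45, interval 0.05 to 0.84), and LUM (-0.39, interval -0.77 to -0.02). At FPM_IC25 edgeR called 0 members (14.2% of all genes, 10.7% higher and 3.51% lower). BGN alone had an unadjusted p under 0.05 there (0.40, adjusted p = 0.193), and without UNT replicate 1 it was called at 0.63 (adjusted p = 0.0319). At FPM_IC50 edgeR called 0 (13.6% of all genes, 10.8% higher and 2.77% lower), none had an unadjusted p under 0.05, and the smallest adjusted p was 0.359. DESeq2 also called 0 members in each of the 3 comparisons. These shares of all genes were smaller in a fit of fewer genes, those without a neighbour on the opposite strand within 5 kb. Among these 4347 genes, the members added, edgeR called 0.644% at FPM_IC25, 0.069% at FPM_IC50 and 1.61% at SRM_IC25, against 24.7% at SRM_IC50. An unadjusted p under 0.05 (edgeR) was reached by 666, 599, 947 and 1485 of them in the same order. The reason for the smaller shares was not tested. Without an expression filter edgeR called TNC at FPM_IC25 and LUM, POSTN and TNC at SRM_IC25.

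The levels at these exposures show how wide the intervals are. LUM ran from 142 to 171 CPM at FPM_IC25 and from 107 to 181 CPM at FPM_IC50, both overlapping the UNT range. DCN ran from 32.5 to 37.0 and from 26.6 to 37.5 CPM. FN1 stood at 3406, 4366 and 3379 CPM at FPM_IC25 and at 2839, 4287 and 3365 CPM at FPM_IC50. Both groups overlapped the range of UNT (2670 to 3835 CPM) and reached above it. TNC stood at 281, 353 and 282 CPM at FPM_IC25, at 264, 345 and 275 CPM at FPM_IC50, and at 373, 292 and 240 CPM at SRM_IC25. In all 3 groups the library with the most FN1 also had the most TNC, VCAN and POSTN, so this is not particular to FN1 and TNC. SPARC kept to 559 to 711 CPM at FPM_IC50, the widest group. BGN ran from 12.8 to 21.3 CPM at FPM_IC25 and from 11.95 to 15.1 CPM at FPM_IC50. VCAN ran from 250 to 425 and from 225 to 340 CPM, and its 95% interval at FPM_IC50 was -0.73 to 0.37 on the log2 scale. TNC was on average higher than in UNT at all 3 exposures, by 0.39 (FPM_IC25), 0.34 (FPM_IC50) and 0.37 (SRM_IC25), with no overlap with UNT at FPM_IC25 and none of them called. POSTN at FPM_IC25 (38.4 to 43.1 CPM) also lay below all UNT libraries, at a log2 difference of -0.29 that was not called. These were the 2 members without overlap in that comparison, against 31.4% of all genes. At FPM_IC50 and at SRM_IC25 every tested member overlapped with UNT, where 26.0% and 25.6% of all genes did not. Between FPM_IC50 and FPM_IC25 edgeR called 0 members (0.0105% of all genes, or 2, against 34 with the replicate block, which called 0 members too), DESeq2 0, and none had an unadjusted p under 0.05. All 8 members overlapped between them, as against 8.57% of all genes that did not. The intervals of LUM (-0.48 to 0.27) and DCN (-0.48 to 0.15) do not reach the size of the change between the SRM concentrations.

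FPM and SRM were compared at each inhibitory level, which is not the same concentration (1.4 against 5.9 µg/mL at IC50, and 0.00062 against 0.003 µg/mL at IC25). At IC50, 6 of 8 members differed, against 39.3% of all genes (23.2% higher and 16.2% lower with FPM). FPM_IC50 exceeded SRM_IC50 by 2.67 on the log2 scale for LUM, 2.13 for DCN, 1.36 for POSTN, 1.27 for FN1 and 1.23 for TNC, and lay below it for VCAN (-1.02, adjusted p = 0.00509, edgeR). Groups did not overlap for any of these 6, and for 46.6% of all genes. The SRM_IC50 libraries are those compared with UNT and SRM_IC25 above, so these results are not independent. BGN (-0.35, interval -0.76 to 0.06) and SPARC (0.04, interval -0.16 to 0.25) were not called. At IC25 edgeR and DESeq2 each called 0 members (10.5% of all genes by edgeR, 9.89% higher and 0.605% lower with FPM), and LUM alone had an unadjusted p under 0.05, at 0.46 higher with FPM (adjusted p = 0.144). LUM was also the 1 tested member without overlap there, against 28.0% of all genes. Among the 4347 genes without an opposite neighbour edgeR called 0 in that comparison, with 485 at an unadjusted p under 0.05.

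VCAN-AS1 and CLMAT3, on the opposite strand of VCAN and SPARC, stood out in the FPM libraries. HAUS7, opposite BGN, averaged 0.345 CPM in UNT, 0.316 at FPM_IC25 and 0.271 at FPM_IC50. DELEC1, opposite TNC, averaged 0.708, 0.6655 and 0.577 CPM in the same groups, so neither was higher on average with FPM. VCAN-AS1, an antisense RNA sharing 453 exon bases with VCAN, had 0, 0 and 1 counts in UNT and at most 2 counts in any SRM library. In the FPM libraries it had 127 to 549 counts, or 9.23 to 15.0 CPM, which equals 4.06% ± 0.941 of the VCAN counts at FPM_IC25 and 4.67% ± 0.809 at FPM_IC50 (SD, n = 3). CLMAT3, which shares 381 exon bases with SPARC, stood at 2.81 to 7.40 CPM in the FPM libraries, at 0.0995 to 0.183 CPM in UNT and at 0 counts in all 3 SRM_IC50 libraries. The strand setting of the counting is not given in the sources used here, so reads of such pairs may not be told apart. LUM, DCN and POSTN have no opposite gene within 5 kb. In a fit limited to genes with no opposite gene within 5 kb, plus the members, the members' calls at SRM_IC50 were the same 6.

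**Figure D5:**
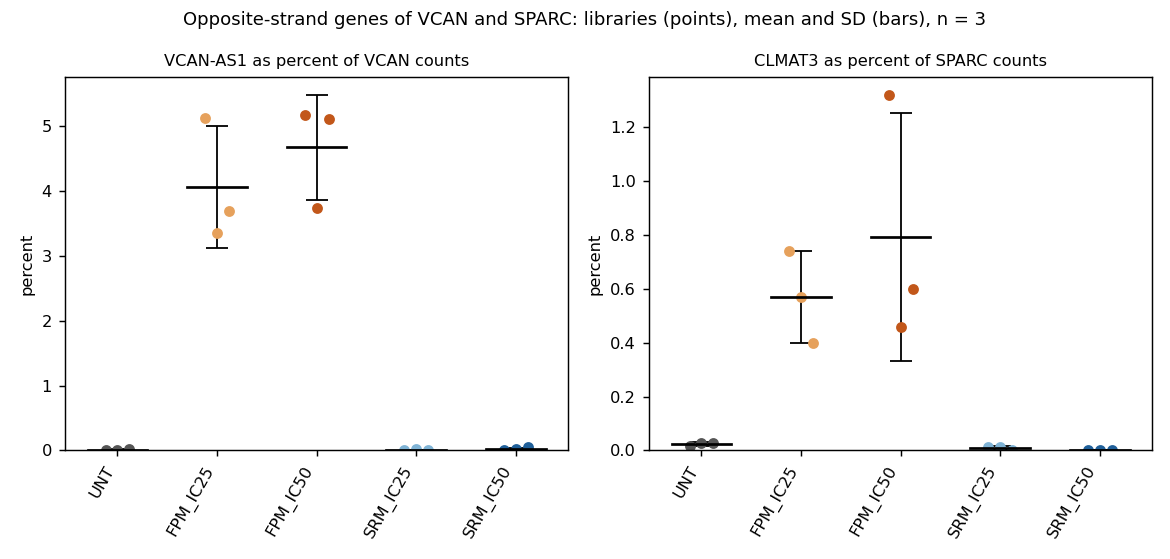
Counts of VCAN-AS1 as a percent of VCAN counts (left) and of CLMAT3 as a percent of SPARC counts (right), y axes from 0, by group (x axis); points are libraries, bars the mean and SD of 3. VCAN-AS1 lies between 3.36% and 5.17% in the 6 FPM libraries and at or below 0.0462% in the other 9.

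The other small leucine-rich proteoglycans did not fall with LUM and DCN. Of 12 listed, 6 could be tested, and at SRM_IC50 2 rose and 0 fell, with a median log2 fold change of 0.58. That is 33.3% called, beside 17.6% of all genes. Apart from PRELP and TSKU, no gene of the 12 averaged above 2.25 CPM (FMOD) in UNT, so the median rests largely on low counts. PRELP, a collagen- and heparin-binding member, rose from 11.6 ± 1.71 to 19.3 ± 3.13 CPM (log2 0.75, SE 0.185, adjusted p = 0.00938, edgeR). TSKU, with 34.9 CPM in UNT, was the most counted of the 12 and stood at 31.9 CPM at SRM_IC50.

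Partners of versican moved in both directions at SRM_IC50. Of 9 hyaluronan-binding proteoglycans, link proteins and hyaluronan enzymes tested, 2 rose and 2 fell (median 0.11). HAPLN1, the link protein that fixes versican to hyaluronan, fell from 569 ± 42.1 to 232 ± 10.5 CPM (log2 -1.29, SE 0.0926, adjusted p = 1.1e-07, edgeR). NCAN (neurocan, of the same family as versican) rose by 1.16 and CD44, the hyaluronan receptor, rose by 0.70. On average, VCAN and HAPLN1 thus went in opposite directions in these libraries. The rise of VCAN against UNT is the less certain side, as its groups overlap and its call was kept in 9 of 17 alternatives. Of 23 genes that build chondroitin and dermatan sulfate chains, 3 rose and 1 fell (median 0.04), a share of 17.4% called beside 17.6% of all genes. The one that fell was CSGALNACT1, which starts and extends chondroitin chains (-1.89). CHST7, a sulfotransferase (0.51), and XYLT2, which begins the linker to the core protein (0.42), rose.

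Of 36 other matricellular and matrix glycoproteins tested, 6 rose and 11 fell at SRM_IC50 (median -0.17). CCN4, a matricellular protein, fell by 2.91 from 22.6 ± 2.41 CPM, SPARCL1, a relative of SPARC, fell by 2.28 from 2.82 ± 0.653 CPM, and TGFBI, a relative of periostin, fell by 1.55 from 337 ± 32.6 CPM. Of 18 proteases and inhibitors, 3 rose and 9 fell (median -0.28). TIMP3, an inhibitor held in the matrix, fell by 1.78, FAP, a serine protease of activated fibroblasts, by 1.39, and TLL1, a processing protease, by 1.34.

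Of 13 collagens that bind small proteoglycans, 4 rose and 5 fell (median -0.09). COL6A3 fell by 1.52 from 77.0 ± 9.55 CPM and COL3A1 by 1.36 from 237 ± 18.3 CPM, while COL5A3 rose by 1.1 from 1.67 ± 0.654 CPM and COL1A1, the main collagen of bone, rose by 0.61 (adjusted p = 0.0145). Of 16 receptors for these proteins, 2 rose and 3 fell (median 0.19). ITGB6 and ITGB5, integrin chains that bind fibronectin or vitronectin, fell by 1.77 and 0.72, and SDC4, a heparan sulfate proteoglycan that binds fibronectin, fell by 0.63. With FPM_IC25 fewer genes of these lists were called: COL6A3 rose by 0.83 (adjusted p = 0.00811), ITGB6 by 0.53, FBLN1 by 0.32 and HAS3 by 0.51, while SPOCK1 fell by 0.58 and HMMR by 0.36. STAB1 rose from 0.134 CPM in UNT to 4.90 CPM. At FPM_IC50, HAS3 (0.60), ITGB6 (0.54) and STAB1 were again called higher and HMMR lower (-0.30). At SRM_IC25, edgeR called FBLN1 (0.35, adjusted p = 0.0469) and B4GALT7 (0.35, 0.0334) higher, and HMMR (-0.43, 0.0172) and DSEL (-0.34, 0.0358) lower. These SRM_IC25 calls did not hold under every fit. With only the 2 groups fitted, without the FPM libraries or with the GC correction, 0 genes were called there. The 3 comparisons with UNT share the UNT libraries. STAB1, HAS3, HMMR and DSEL share exon bases with genes on the opposite strand, and FBLN1 has one within 5 kb, whereas COL6A3, ITGB6, SPOCK1 and B4GALT7 have none.

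The genes whose profile lay closest to a member were found by the root mean square difference of log2 CPM, each gene centred on its own mean, over the 15 libraries among 13621 protein-coding candidates. Closest to LUM were GABRP (0.169), which is also on the amnion and trophoblast list, and PPARG (0.197). Closest to DCN were TCIM (0.0987) and EPSTI1 (0.122). For POSTN they were PLCXD3 (0.167) and ARAP2 (0.196). For FN1 they were DSP (0.114), a desmosome protein, and TNC itself (0.120), and for TNC PLXNA2 (0.0964) and CGNL1 (0.0995). For BGN they were CAPN5 (0.115) and PKNOX2 (0.126), and for SPARC ARL2BP (0.0520) and ACTA2 (0.0652). Among pairs of members, FN1 and TNC were nearest, followed by LUM and DCN (0.245), and LUM and VCAN were farthest apart (1.47). These are descriptions over libraries that share their groups.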

How the data were processed

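The authors deposited whole-number read counts per gene and FPKM values for 15 libraries. Per the submitters' processing notes, FastQC 0.11.7, HISAT2 2.2.1, SAMtools 1.10, featureCounts, Subread 2.0.15, DESeq2 and GRCh38 were used. Per the labels' protocols, polyadenylated RNA was made into libraries with a directional kit. Not given in the sources used here are the annotation release, the strand setting and the handling of multimapping reads. The deposited FPKM values equal the counts divided by gene length and total counts. Positions came from GENCODE 29.

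The deposited counts went into edgeR 4.0.16 under R 4.3.3 (filterByExpr, TMM, robust quasi-likelihood fit of 5 group means to 15 libraries, Benjamini-Hochberg over all genes tested, threshold 0.05). Adjusted p-values come from edgeR where the text names no tool, and 95% intervals are not adjusted. Alternatives were DESeq2 1.42.0 and its size factors, no filter, a replicate block, fewer groups, fewer genes, a GC correction, limma 3.58.1 with a trend on log2 values of the deposited FPKM (pseudocounts 1 and 0.1), and leaving out each library. No 2 replicates were alike within sampling noise, with a chi-square of at least 5.48 per gene.

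Members and lists were chosen with earlier results of these data known, so the counts of lists support no claim on their own. Named genes are all members, up to 3 called genes per list with the largest change and a mean of at least 1 CPM, the first 3 of each marker list, genes opposite a member, and the 2 nearest profiles per member (those of VCAN, some markers and some promoter sequence are not reported here). TSKU and the cluster neighbours KERA, EPYC, OMD and ECM2, and the osteoblast markers printed besides RUNX2, SP7 and ALPL were named after their values were seen. By the correlation of deviations from the group means, all 3 same-numbered pairs exceeded 0.1 only between FPM_IC50 and FPM_IC25 (0.182 to 0.261). Between SRM_IC50 and UNT, 2 of the 3 pairs did, at 0.382 for replicate 1 and 0.438 for replicate 3. Replicate 2 gave 0.0188, so the numbers pair these groups only in part. The labels do not say what a number marks. The test of the particle by concentration difference was added after the data were seen.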

Additional observations from a re-analysis of the deposited data

Results flagged for a closer look

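For 5 members the step from IC25 to IC50 differed between the particles, by a test of the difference itself that was chosen after the data were seen (edgeR, Benjamini-Hochberg over all genes; 14.6% of all genes passed). As the SRM step minus the FPM step on the log2 scale, LUM gave -2.21 (SE 0.257, adjusted p = 2.72e-05) and DCN -1.86 (SE 0.220, adjusted p = 3.09e-05). FN1 gave -1.29 (adjusted p = 0.0152), TNC -1.21 (adjusted p = 0.0111) and POSTN -1.20 (adjusted p = 0.0194). In LUM and DCN all 3 SRM_IC50 libraries lie below all 3 SRM_IC25 libraries, while the FPM groups overlap. VCAN gave 1.12, which missed the threshold (adjusted p = 0.0514), and BGN (0.31) and SPARC (0.00) were not called. Concentrations and the spacing between them differ between the particles. The test uses the same SRM_IC50 libraries as the comparisons above, so it is not independent of them.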

How the results depend on the processing

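No called result changed direction under the alternatives run. Of 18 called member results 16 kept their call under every alternative; the other 2 are those of VCAN against UNT and against SRM_IC25. VCAN against UNT was also lost with the 2 groups fitted alone (adjusted p = 0.0963) and by limma-trend on FPKM with a pseudocount of 1 (0.0688) or 0.1 (0.0661). Of 748 alternatives of the 46 results not called, 8 passed. Members called at FPM_IC25 against UNT went from 0 to 1 with no filter and ranged from 0 to 1 with a library left out. At SRM_IC25 they went from 0 to 3 with no filter, and for FPM_IC25 against SRM_IC25 to 1 with no filter and 1 with only those 2 groups. With a library left out, members called at SRM_IC50 ranged from 5 to 7.

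Counts of all genes called moved more. Limited to genes that lack an opposite-strand neighbour within 5 kb, which tests fewer genes, they were 28 at FPM_IC25 (2693 in the fit reported), 3 at FPM_IC50 (2585), 70 at SRM_IC25 (831), 1074 at SRM_IC50 (3337), 7 between FPM concentrations (2), 1407 between SRM concentrations (5115), and 0 (1995) and 1486 (7476) between particles at IC25 and IC50. At SRM_IC25 DESeq2 gave 1980, and 0 were called with only the 2 groups, without the FPM libraries or with the GC correction. Leaving out a library gave 0 to 793. Between FPM concentrations DESeq2 gave 37, no filter 116, only the 2 groups 0, the GC correction 4, limma-trend 0 and 0, and leaving out a library 0 to 2. The causes were not tested.

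With the replicate block, genes called were 4079 at FPM_IC25, 2718 at SRM_IC25 and 34 between FPM concentrations, and with the block and the GC correction together they were 6 at SRM_IC25 and 37 between FPM concentrations. The block changed no member's call. Over all groups, same-numbered libraries correlated above 0.1 in 16 of 30 pairs (median 0.16) and others in 11 of 60 (median -0.0783). Every library was nearest to its own number between FPM concentrations, and 5 of 6 were between SRM_IC50 and UNT. VCAN against UNT was 0.84 with it (adjusted p = 0.000791).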
